A study of Homo sapiens with 8 samples.

Results

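Nuclear hormone receptors are transcription factors that bind a small lipophilic ligand, or have no known ligand, and were followed here in OVCA429, a line of human ovarian cancer cells in long use, with and without knockdown of the epithelial transcription factor GRHL2. The members were 46 genes of the superfamily, picked out by their gene symbols, of 57820 genes in the deposited table. The control line, shLuc, expressed a hairpin RNA (shRNA) that targets luciferase, and the other line, shGRHL2, expressed an shRNA that targets GRHL2. Both were stable lines, grown under the same conditions in serum-containing medium with puromycin, and 1 shRNA against GRHL2 was used, so that the effect of this shRNA and that of GRHL2 loss cannot be told apart. Each group had 4 samples by its labels, and values are FPKM (fragments scaled to transcript length and to sequencing depth), which are per length and can be set side by side between genes.

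Most receptors of this superfamily share a DNA-binding domain of zinc fingers and a ligand-binding domain. Steroid receptors wait with chaperones for their hormone and then act as dimers of like subunits, whereas the thyroid hormone, retinoic acid, vitamin D, liver X and peroxisome proliferator-activated receptors sit on DNA with a retinoid X receptor (RXR) as partner. With ligand they recruit coactivators, and without it many recruit corepressors. In the ovary and its surface epithelium the family is best known for the receptors of estrogen, progesterone and glucocorticoid, and the orphan receptors NR2F1 and NR2F2 are known from the development of many organs.

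Among genes of at least 100 FPKM, the coefficient of variation (CV) had a median of 2.72% in shLuc (763 genes) and 2.79% in shGRHL2 (656 genes), and the sample descriptions end in running suffixes of the kind that mark sequencing lanes, L001 to L004 in both groups. By this limit on abundant genes (a median under 3%) each group was counted as 1 library sequenced in 4 runs, although the receptors themselves varied more between runs, as given below. Values after ± are the SD between these runs, separate cultures were not compared, and no p-value is given. Sequencing depth, estimated from how low values are spaced, was 9.35 to 9.67 M fragments in the shLuc runs and 9.92 to 10.2 M in the shGRHL2 runs, or about 38 and 40.1 M in each library. GRHL2 itself was at 33.9 ± 3.3 FPKM in shLuc and 0.388 ± 0.52 FPKM in shGRHL2. Its runs were at 31.50, 38.69, 33.35 and 31.98 FPKM in shLuc and at 0.13, 0.15, 1.17 and 0.10 FPKM in shGRHL2. Run 3 of shGRHL2 thus stood far above the other runs of that group. Of the 7 markers of the labeled cell type, 6 were lower by 2-fold or more in shGRHL2, while PAX8, a lineage factor of Müllerian epithelium, was at 69.8 ± 3.6 and 122 ± 2.9 FPKM. The summed level of the 4 endothelial markers measured lay between 0.72 and 1.07 FPKM over the shLuc runs and between 92.4 and 97.3 FPKM over the shGRHL2 runs, most of it TIE1. CDH5 was higher too, at 0.0375 ± 0.057 and 10.8 ± 0.88 FPKM. VWF overlapped at 0.0575 ± 0.029 and 0.153 ± 0.098 FPKM, and CLDN5 at 0.125 ± 0.11 and 0.0325 ± 0.065 FPKM. The 5 leukocyte markers together reached 2.56 to 4.2 and 9.25 to 10.2 FPKM with CD3E at 0 in all runs. LAPTM5 and CD68 were higher in every shGRHL2 run, and PTPRC overlapped at 0.502 ± 0.36 and 0.495 ± 0.16 FPKM. The 5 fibroblast markers together reached 1.09 to 2.81 and 3.34 to 5.09 FPKM, with COL1A1 at 1.19 ± 0.7 and 3.64 ± 1 FPKM and DCN at 0 in all runs. MT-RNR2, a ribosomal RNA of mitochondria, accounted for 14.7% of fragments in shLuc and 23.7% in shGRHL2, and the part of these shifts in the values of the receptors was not tested beyond the scalings given below.

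Of the 46 receptors, 25 reached a mean of 1 FPKM or more in at least 1 group and were compared. They were compared by subtracting the mean log2(FPKM + 1) of shLuc from that of shGRHL2, with a limit of 1 (2-fold on that scale). Higher by 2-fold or more were 2 receptors (8% of the 25), the glucocorticoid receptor NR3C1 and the mineralocorticoid receptor NR3C2, where 4.97% of all 15019 tested genes were. Lower by 2-fold or more were 3 receptors (12%), the orphan receptors NR2F1 and NR4A1 and the thyroid hormone receptor THRB, where 7.24% of all tested genes were. These shares are of the same order as those over all genes, and with so few members they say little about the superfamily.

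Differences below 0 were found in 16 of the 25 receptors (64%), against 58.1% of all tested genes. In 13 of the 25 receptors (52%) every shGRHL2 run was below every shLuc run, against 33.2% of all tested genes, and in 5 (20%) every one was above, against 18.5%. In the other 7 (28%) the runs of both libraries overlapped, against 48.4% of all tested genes. Without the 5 receptors past the limit, the runs of 10 were lower, those of 3 higher and those of 7 overlapping. All genes within the limit were not counted in this way, so these numbers are no trait of the receptors. The median difference of the 25 was −0.24, and that of all tested genes was −0.10. Rescaling moves these values: with equal medians of the tested genes the receptors' median was −0.12 and that of all genes 0.01. Over all genes, 746 were higher and 1087 lower by 2-fold or more as deposited, and 1044 and 987 with the fragments of the mitochondrial ribosomal RNAs left out of the denominator, an alternative chosen after seeing the data. Under that alternative the same numbers of receptors, 2 and 3, passed the limit, whereas after rescaling to TPM (FPKM rescaled to the same total in every run) 1 was higher and 4 were lower.

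**Figure D1:**
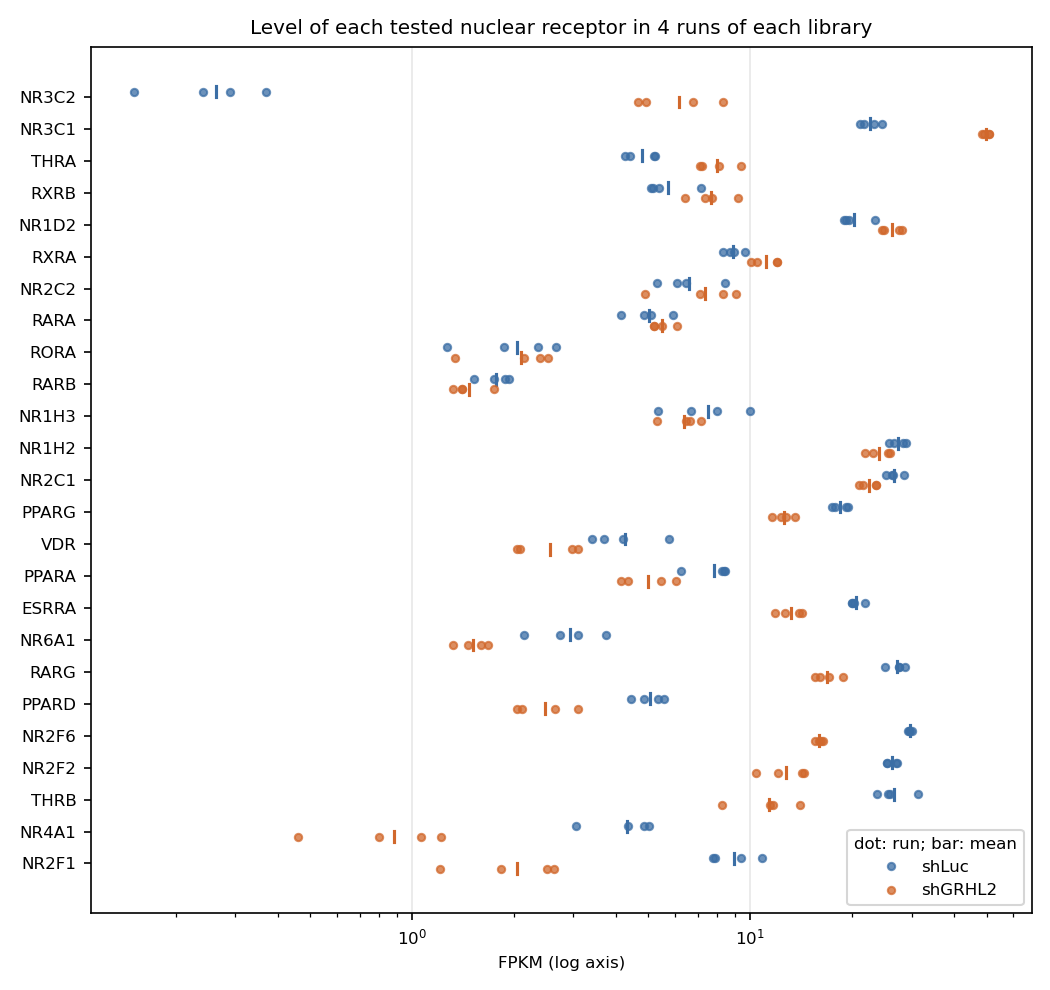
Level in FPKM (log axis) of the 25 tested nuclear receptors in each of the 4 shLuc and 4 shGRHL2 sequencing runs, with dots for runs and vertical bars for the mean, ordered by the difference between the libraries. NR3C2 at the top is at 0.37 FPKM or less in every shLuc run and at 4.65 FPKM or more in every shGRHL2 run, and the runs of 7 receptors in the middle overlap.

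The corticosteroid receptors had the largest positive differences between the libraries. NR3C2, which binds aldosterone and cortisol (ENSG00000151623.10, GRCh37 chromosome 4, minus strand, 148999913 to 149365850), was at 0.15, 0.29, 0.37 and 0.24 FPKM over the 4 shLuc runs and at 8.31, 4.90, 6.79 and 4.65 FPKM over the 4 shGRHL2 runs. Every shGRHL2 run was far above the highest shLuc run, although the shGRHL2 runs themselves spread widely. The means were 0.262 ± 0.092 and 6.16 ± 1.7 FPKM, 23.5-fold higher, with a difference of 2.48 on the log2(FPKM + 1) scale. About 53.5 fragments stood behind the shLuc value and 1330 behind the shGRHL2 value, so that NR3C2 passed the filter on low values through shGRHL2 alone and had to differ to enter the comparison.

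NR3C1, the cortisol receptor that most cell types carry (ENSG00000113580.10, GRCh37 chromosome 5, minus strand, 142657496 to 142815077), was at 21.67, 21.16, 24.48 and 23.30 FPKM in shLuc and at 48.39, 50.93, 49.02 and 50.88 FPKM in shGRHL2. The runs of each library lay close together and far from those of the other. The means of 22.7 ± 1.5 and 49.8 ± 1.3 FPKM were 2.2-fold apart, a difference of 1.10, which came to 1.00 and just missed the limit after rescaling to TPM. NR3C1 ranked as number 7 of the 46 receptors by level in shLuc and as number 1 in shGRHL2. Its ratio to NR3C2 was 95.2 ± 35 in shLuc and 8.59 ± 2.5 in shGRHL2, and NR3C2 made up 1.1% ± 0.34 and 10.7% ± 2.9 of the summed FPKM of the 5 steroid receptors listed.

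The other steroid receptors were low. The estrogen receptor ESR1 was at 0.05, 0.56, 0.58 and 0.73 FPKM in shLuc and at 0.40, 0.45, 1.96 and 0.67 FPKM in shGRHL2, and these runs overlapped. The second estrogen receptor, ESR2, was at 0.29, 0.37, 0.08 and 0.24 FPKM in shLuc and at 0.94, 0.71, 0.62 and 0.81 FPKM in shGRHL2, so that its shGRHL2 runs were all higher while staying under 1 FPKM. The progesterone receptor PGR was at 0 in all 8 runs. A count of 0 allows PGR up to the floor of 3 fragments per library, which over the 5 receptors at 0 throughout lay between 0.023 and 0.08 FPKM in shLuc and between 0.022 and 0.075 FPKM in shGRHL2.

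The orphan receptors of the COUP-TF family, which bind DNA mostly as repressors, were all lower in shGRHL2, to unequal degrees. NR2F1 (ENSG00000175745.7, GRCh37 chromosome 5, plus strand, 92918928 to 92930317) was at 7.84, 10.86, 7.77 and 9.37 FPKM in shLuc and at 2.62, 1.83, 2.51 and 1.21 FPKM in shGRHL2. No run of either library came near those of the other. The means of 8.96 ± 1.5 and 2.04 ± 0.66 FPKM were 4.39-fold apart, a difference of −1.73. The antisense RNA NR2F1-AS1, whose gene overlaps that of NR2F1 by 2428 bases on the opposite strand, was at 12.4 ± 1.6 and 2.77 ± 1.1 FPKM, a difference of −1.88. Whether strand was used in counting is not given in the sources used here, so reads of the overlap may have been divided between both genes.

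NR2F2, the close relative of NR2F1, was at 27.10, 25.38, 26.97 and 25.31 FPKM in shLuc and at 14.24, 10.37, 14.43 and 12.12 FPKM in shGRHL2. The gene shares 1424 bases on the opposite strand with NR2F2-AS1, at 5.3 ± 1.5 and 2.36 ± 0.65 FPKM, and its level is uncertain to that extent. The runs of NR2F2 did not overlap, and its difference of −0.99 made it the receptor just inside the limit. Just outside were NR3C1 at 1.10 among the higher receptors and THRB at −1.18 among the lower. NR2F2 passed the limit after rescaling to TPM (−1.08), with a pseudocount of 0.1 (−1.04), with the mitochondrial ribosomal RNAs left out of the total (−1.04) and without any 1 of 4 runs, shLuc runs 2 and 4 and shGRHL2 runs 1 and 3 (down to −1.05). NR2F6 was the most abundant receptor of shLuc, at 29.24, 29.47, 30.10 and 29.79 FPKM, and was at 15.52, 15.95, 16.43 and 16.16 FPKM in shGRHL2. Its runs were the tightest of all the tested receptors, and its difference was −0.85. Of the summed FPKM of the 3 genes, NR2F1 took 13.8% ± 2.1 in shLuc and 6.55% ± 1.8 in shGRHL2, while the share of NR2F2 overlapped at 40.4% ± 1.8 and 41.3% ± 3.2.

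NR4A1, an immediate early gene induced by growth factors and stress (ENSG00000123358.15, GRCh37 chromosome 12, plus strand, 52416616 to 52453291), was at 5.01, 3.06, 4.85 and 4.35 FPKM in shLuc and at 0.46, 1.06, 1.22 and 0.80 FPKM in shGRHL2. All shGRHL2 runs lay far below the lowest shLuc run. The means of 4.32 ± 0.88 and 0.885 ± 0.33 FPKM were 4.88-fold apart with a difference of −1.50, on about 212 and 45.8 fragments, and the gene passed the filter through shLuc alone. Its relatives NR4A2 and NR4A3 stayed at or under 0.36 FPKM in every run. NR4A3 was at 0.09, 0.07, 0.17 and 0.20 FPKM in shLuc and at 0, 0.02, 0.05 and 0.02 FPKM in shGRHL2, lower in every run, and NR4A2 overlapped at 0.273 ± 0.096 and 0.235 ± 0.11 FPKM. The NR4A3 values rested on only about 24.4 fragments in shLuc and 4.36 in shGRHL2.

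The thyroid hormone receptors differed in opposite directions. THRB (ENSG00000151090.13, GRCh37 chromosome 3, minus strand, 24158644 to 24537247) was at 23.78, 25.91, 25.58 and 31.40 FPKM in shLuc and at 14.07, 8.24, 11.71 and 11.41 FPKM in shGRHL2, 2.35-fold lower by the means of 26.7 ± 3.3 and 11.4 ± 2.4 FPKM. THRA was at 5.22, 4.27, 5.20 and 4.40 FPKM in shLuc and at 7.22, 7.12, 9.38 and 8.09 FPKM in shGRHL2, a difference of 0.63. Neither gene's runs overlapped, with THRB lower and THRA higher in every shGRHL2 run. The ratio of THRB to THRA was 4.56, 6.07, 4.92 and 7.14 in the shLuc runs and 1.95, 1.16, 1.25 and 1.41 in the shGRHL2 runs, so THRA made up 15.3% ± 2.6 of the pair's FPKM in shLuc and 41.6% ± 5.5 in shGRHL2. THRA shares 1075 bases on the opposite strand with NR1D1 and 2926 bases with the mediator subunit MED24, at 10.9 ± 2.1 and 11.7 ± 1.8 FPKM, and its level is uncertain to that extent.

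**Figure D2:**
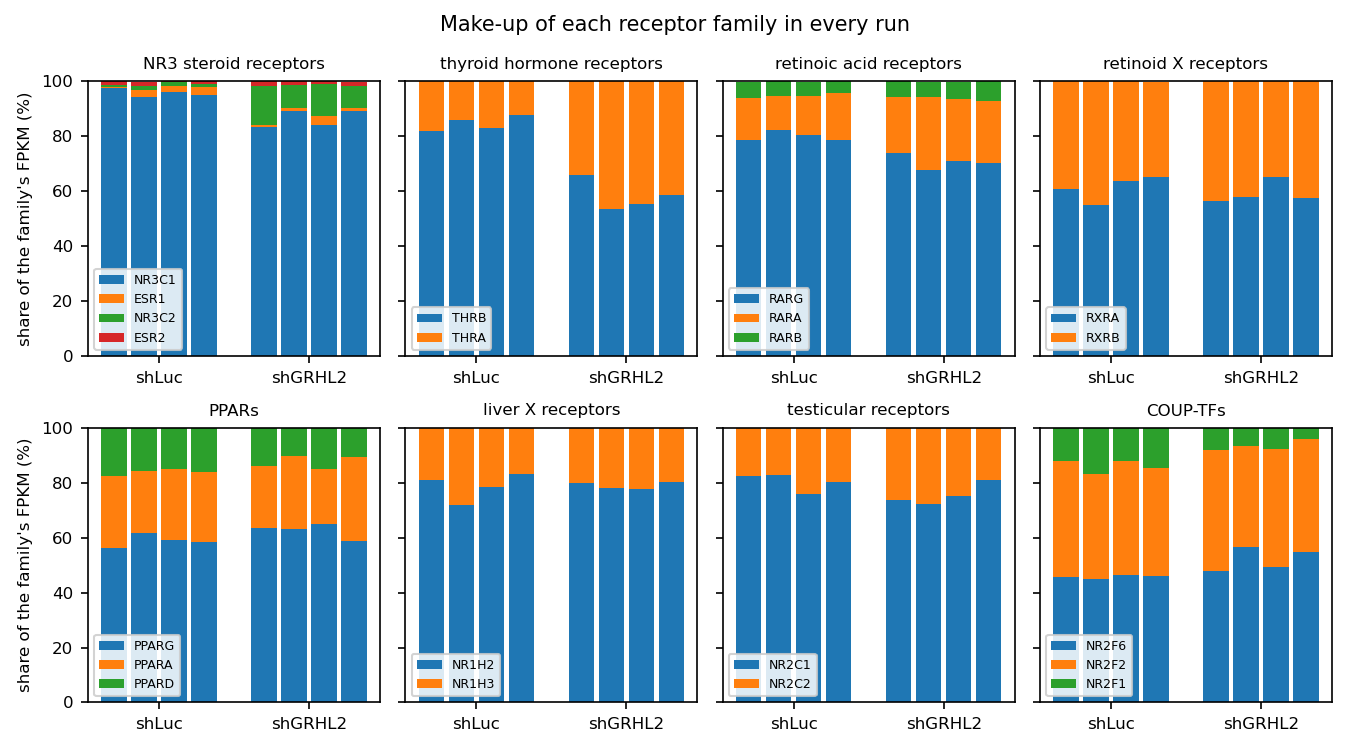
Share in percent of each receptor family's summed FPKM taken by its members, with 1 bar per sequencing run, 4 of shLuc on the left and 4 of shGRHL2 on the right of each panel (members at 0 in all runs are left out). THRA takes 15.3% of the thyroid hormone receptor FPKM in shLuc and 41.6% in shGRHL2, whereas the retinoid X receptors keep overlapping shares.

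None of the receptors of fatty acid ligands passed the limit. PPARD, which is present in most tissues, was at 5.55, 4.44, 4.86 and 5.35 FPKM in shLuc and at 2.65, 2.04, 3.09 and 2.11 FPKM in shGRHL2, a difference of −0.81 that reached −1.02 with a pseudocount of 0.1. PPARA, the regulator of fatty acid oxidation, was at 8.24, 6.26, 8.37 and 8.41 FPKM in shLuc and at 4.35, 5.43, 4.16 and 6.03 FPKM in shGRHL2. PPARG, the regulator of fat cell formation, was at 17.86, 17.42, 19.14 and 19.50 FPKM in shLuc and at 12.30, 12.80, 13.54 and 11.61 FPKM in shGRHL2. All 3 were lower in every shGRHL2 run, PPARA by the narrowest gap, and the differences of PPARA and PPARG were −0.56 and −0.52. With equal medians the 3 differences were −0.71, −0.46 and −0.41. PPARG kept an overlapping share of the family, 59% ± 2.3 in shLuc and 62.7% ± 2.7 in shGRHL2.

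Among the retinoid receptors, RARG was the abundant subtype. It was at 25.03, 27.57, 28.64 and 27.55 FPKM in shLuc and at 18.82, 15.58, 16.13 and 17.07 FPKM in shGRHL2, lower in every run with a difference of −0.66. RARA was at 5 ± 0.72 and 5.49 ± 0.41 FPKM and RARB at 1.77 ± 0.19 and 1.47 ± 0.19 FPKM, and the runs of both overlapped. The ratio of RARG to RARA was 5.52 ± 0.84 in shLuc and 3.1 ± 0.43 in shGRHL2. Of the retinoid X receptors, the shared partners of this group, RXRA was at 8.9 ± 0.55 and 11.1 ± 1 FPKM, higher in every shGRHL2 run, RXRB overlapped at 5.69 ± 0.99 and 7.67 ± 1.2 FPKM, and RXRG was at 0 in all runs. The share of RXRA in the pair overlapped, at 61.1% ± 4.5 and 59.3% ± 4.

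VDR, the receptor of active vitamin D, was at 5.74, 3.41, 4.19 and 3.70 FPKM in shLuc and at 2.09, 2.98, 3.10 and 2.04 FPKM in shGRHL2. The runs did not overlap but the nearest of them were close, and the difference was −0.56. ESRRA, which together with the PGC-1 coactivators drives mitochondrial genes, was at 21.78, 20.03, 19.98 and 20.34 FPKM in shLuc and at 14.26, 11.85, 12.65 and 13.96 FPKM in shGRHL2, a difference of −0.61. NR6A1, an orphan receptor of germ cells and early embryos, was at 2.73, 2.14, 3.74 and 3.10 FPKM in shLuc and at 1.60, 1.68, 1.32 and 1.46 FPKM in shGRHL2, a difference of −0.63. VDR, ESRRA and NR6A1 were all lower in every shGRHL2 run. ESRRA shares 284 bases on the opposite strand with TRMT112, at 161 ± 5.5 and 112 ± 3.3 FPKM, and its level is uncertain to that extent.

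The remaining tested receptors lay within 0.5 of no difference. The oxysterol receptors NR1H2 and NR1H3 (the liver X receptors) were at 27.4 ± 1.4 and 7.49 ± 2 FPKM in shLuc and at 24.1 ± 2 and 6.38 ± 0.79 FPKM in shGRHL2, with overlapping runs for both. The orphan receptor NR2C1 was lower in every shGRHL2 run, at 26.6 ± 1.4 and 22.4 ± 1.3 FPKM, and its relative NR2C2 overlapped at 6.57 ± 1.3 and 7.34 ± 1.8 FPKM. NR1D2, a repressor of the circadian clock, was higher in every shGRHL2 run, at 20.3 ± 2.1 and 26.2 ± 1.8 FPKM, and ranked as number 2 of all the receptors there. RORA, an activator that binds the same clock elements, overlapped at 2.04 ± 0.61 and 2.1 ± 0.53 FPKM, and the sign of its difference of 0.03 turned to −0.04 after rescaling to TPM.

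**Figure D3:**
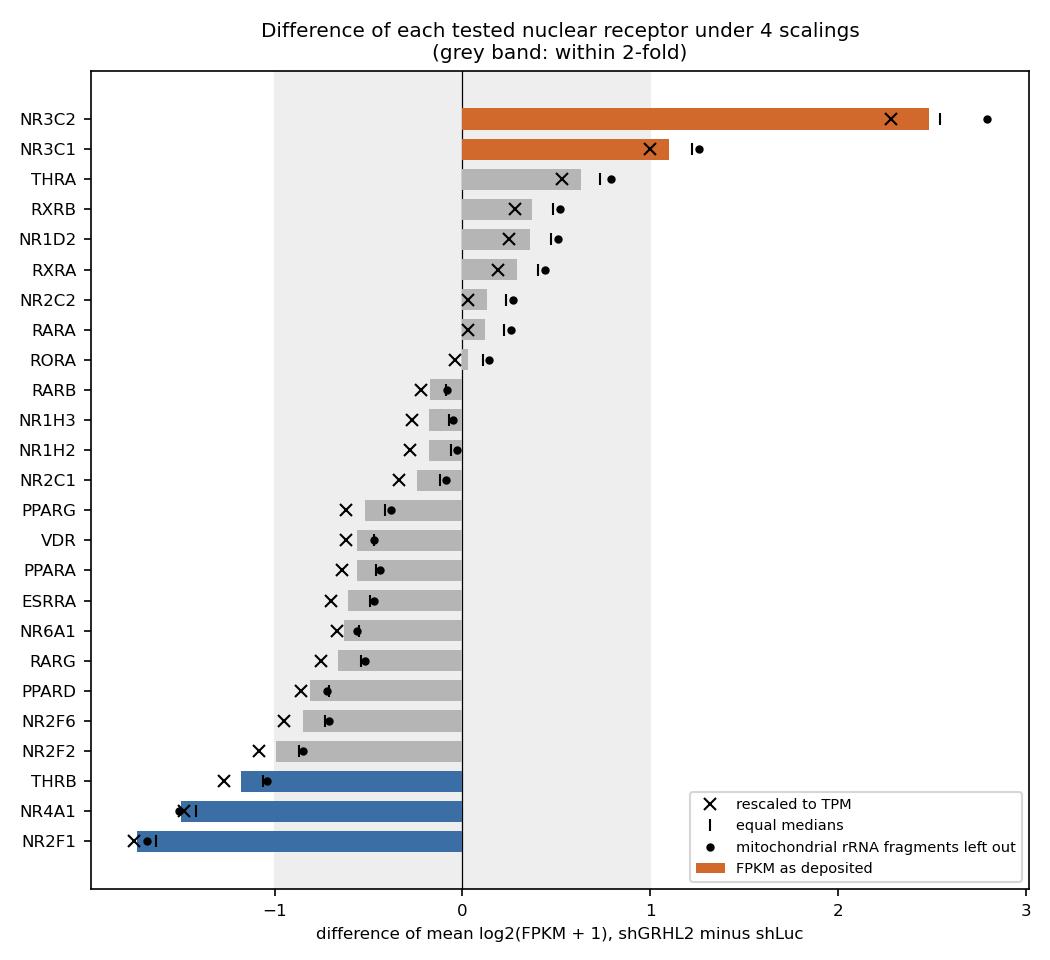
Difference of mean log2(FPKM + 1), shGRHL2 minus shLuc, of each tested receptor as deposited (bars, colored past the limit of 1) and under 3 other scalings (symbols), with the grey band marking less than 2-fold on this scale. NR3C2, NR2F1, NR4A1 and THRB lie past the limit under all 4 scalings shown, NR3C1 comes to 1.00 after rescaling to TPM, and only RORA has symbols on both sides of 0.

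The remaining 21 receptors stayed under a mean of 1 FPKM in both libraries, 5 of them at 0 in all runs. These 5 were PGR, RXRG, the bile acid receptor NR1H4, the adrenal and gonadal repressor NR0B1 and the neural orphan receptor NR2E1. NR2E3, known from photoreceptors, was at 0, 0.34, 0.22 and 0.06 FPKM in shLuc and at 0.41, 0.79, 1.25 and 0.69 FPKM in shGRHL2, with every shGRHL2 run higher. The clock repressor NR1D1 overlapped at 0.473 ± 0.2 and 0.912 ± 0.23 FPKM, and NR5A2, HNF4G and the xenobiotic receptor NR1I3 overlapped at means between 0.387 and 0.62 FPKM. The liver receptor HNF4A and the estrogen-related receptor ESRRG were above 0 in shLuc runs only, at means of 0.045 and 0.0475 FPKM, and RORB was at 0.0125 and 0.0025 FPKM. The estrogen-related receptor ESRRB, the steroidogenic factor NR5A1, the xenobiotic receptor NR1I2 and the orphan repressor NR0B2 were above 0 in shGRHL2 runs only, at means between 0.025 and 0.0725 FPKM. From HNF4A to NR0B2 these levels correspond to a handful of fragments per library, and no direction was read from them. NR2E3 rested on about 10.8 fragments in shLuc and 57.9 in shGRHL2.

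Summed over the 46 genes, receptor FPKM was 325 ± 8.1 in shLuc and 280.7 ± 7.8 in shGRHL2. The 5 most abundant receptors of each run held 42.1% to 43.2% of this sum in the shLuc runs and 48.4% to 51.1% in the shGRHL2 runs, without overlap. Between runs, the tested receptors varied more than by counting fragments. The median CV was 10.6% in shLuc and 13.1% in shGRHL2, where counting alone gives medians of 7% and 6.45%. NR3C2 in shGRHL2 was the extreme, with a CV of 27.9% against 5.48% from counting, while NR2F6 varied by 1.27% in shLuc. The SD between runs therefore holds more than counting error, and it does not cover differences between cultures.

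Promoter sequences from RefSeq (GRCh38.p14, 250 bases before to 50 after each annotated start) matched 41 of the 46 receptors in 96 windows. The GRHL2 motif AACCNGTT, searched on both strands, was in 3 of these windows (3.12%), against 1.73% of all 35116 windows. By gene it was in 3 of 41 receptors (7.32%), against 2.14% of all 27305 genes, and the receptors had more windows per gene. The 3 were windows of PPARG, NR3C1 and NR4A1, 1 receptor higher and 2 lower in shGRHL2. The windows of NR3C1 and NR4A1, the receptors past the limit that hold a match, and that of NR3C2, the receptor with the highest fold and no match in any of its 4 windows, are shown with the matched letters in capitals.
NR3C1 promoter (chr5:143403637-143403936, GRCh38.p14, minus strand): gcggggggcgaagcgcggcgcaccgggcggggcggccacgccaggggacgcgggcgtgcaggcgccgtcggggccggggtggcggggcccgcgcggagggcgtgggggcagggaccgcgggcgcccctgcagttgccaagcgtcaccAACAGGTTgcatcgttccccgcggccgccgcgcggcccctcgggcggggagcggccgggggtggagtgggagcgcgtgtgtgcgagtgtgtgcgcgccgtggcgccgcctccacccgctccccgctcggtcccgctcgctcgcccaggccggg
NR4A1 promoter (chr12:52037465-52037764, GRCh38.p14, plus strand): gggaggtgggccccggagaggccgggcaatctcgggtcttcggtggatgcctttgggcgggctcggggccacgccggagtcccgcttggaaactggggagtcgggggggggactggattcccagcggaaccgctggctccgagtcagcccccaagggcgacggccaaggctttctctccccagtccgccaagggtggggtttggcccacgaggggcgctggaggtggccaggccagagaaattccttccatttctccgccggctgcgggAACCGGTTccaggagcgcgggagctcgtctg
NR3C2 promoter (chr4:148442365-148442664, GRCh38.p14, minus strand): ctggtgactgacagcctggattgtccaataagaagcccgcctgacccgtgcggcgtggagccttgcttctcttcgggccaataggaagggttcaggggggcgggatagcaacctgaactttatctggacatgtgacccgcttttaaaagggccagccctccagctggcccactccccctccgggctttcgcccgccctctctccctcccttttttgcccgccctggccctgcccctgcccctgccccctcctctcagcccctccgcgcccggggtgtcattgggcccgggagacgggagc

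The match of NR3C1 began 103 bases before the start, in 1 of its 7 windows, and that of NR4A1 began 19 bases after the start, in 1 of its 2 windows. The windows shown held 51, 25 and 16 CpG dinucleotides, and the other 3 windows of NR3C2 held 42, 40 and 38, where the median of all windows was 14. A match is a description of the letters, not of binding.

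Of 16 coactivators, 15 were tested and 0 passed the limit in either direction, with a median difference of −0.20. The runs of 6 were lower and those of 2 higher without overlap, where 33.2% and 18.5% of all tested genes were. The nearest to the limit was the p160 coactivator NCOA3, at 23.4 ± 0.99 FPKM in shLuc and 11.4 ± 0.94 FPKM in shGRHL2, a difference of −0.97, and 1 coactivator was lower by 2-fold or more with a pseudocount of 0.1, after rescaling to TPM and with the mitochondrial ribosomal RNAs left out of the total. The methyltransferase PRMT1 was the most abundant at 89.9 ± 2.3 and 102 ± 3.9 FPKM. Of the 9 corepressors, 0 passed the limit, and the median was 0.00. The runs of 3 were lower and those of 2 higher without overlap, beside the same 33.2% and 18.5% of all tested genes. LCOR was the nearest to the limit, at 19.8 ± 3.8 and 9.91 ± 1.5 FPKM, a difference of −0.92, and 1 corepressor was lower by 2-fold or more after rescaling to TPM or without shLuc run 2. The most abundant, TBL1XR1, was at 69.2 ± 0.71 and 65.1 ± 0.47 FPKM.

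Of the 12 chaperones and co-chaperones of steroid receptors, 1 passed the limit, the HSP40 protein DNAJB1 at 65.5 ± 2.5 and 29.5 ± 1.2 FPKM. With the mitochondrial ribosomal RNA fragments left out of the denominator 0 passed it. The runs of 10 of the 12 were lower without overlap, where 33.2% of all tested genes were, and the median was −0.34, where that of all genes was −0.10. The HSP70 protein HSPA8 was at 1100 ± 7.3 and 959 ± 22 FPKM, and HSP90AB1 was at 509 ± 8.1 and 477 ± 2.9 FPKM. The difference of HSP90AB1 was only −0.09, yet its runs did not overlap. Abundant genes with close runs can thus count as lower on small differences. Overlap was counted on FPKM as deposited and not under the other scalings.

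The genes that make and clear ligands held the wider differences. Of the 11 tested enzymes of steroid, vitamin D and thyroid hormone metabolism, 3 were higher and 4 lower by 2-fold or more, with a median of −0.35. The 3 higher genes passed the filter through shGRHL2 alone and so had to differ, and 1 lower gene passed it through shLuc alone. After rescaling to TPM or with a filter at 5 FPKM 1 gene was higher. HSD11B1, which regenerates cortisol from cortisone, was at 15.92, 14.94, 15.42 and 15.23 FPKM in shLuc and at 2.20, 1.37, 1.58 and 1.57 FPKM in shGRHL2. It was 9.15-fold lower, opposite in direction to the corticosteroid receptors NR3C1 and NR3C2. HSD17B7, an enzyme of cholesterol and estrogen synthesis, was at 38.9 ± 1.7 and 7.14 ± 0.7 FPKM, CYP24A1, which breaks down vitamin D, at 187 ± 3.2 and 43.6 ± 1.3 FPKM, and AKR1C3, which reduces steroid ketones, at 0.518 ± 0.24 and 5.35 ± 1.1 FPKM. HSD17B4, a peroxisomal enzyme, was the second most abundant of the list in shLuc and overlapped at 77.5 ± 13 and 60.2 ± 7.8 FPKM.

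Of the 10 tested genes of retinoid handling, 3 were higher and 2 lower by 2-fold or more, with a median of −0.07. ALDH1A3, which makes retinoic acid, was at 550.18, 536.50, 540.56 and 526.43 FPKM in shLuc and at 119.13, 132.96, 128.87 and 118.07 FPKM in shGRHL2. CRABP2, which carries retinoic acid to its receptors, was at 187 ± 2.7 and 43.5 ± 3.5 FPKM. Both were lower beyond any overlap, whereas CYP26B1, which clears retinoic acid, was at 1.85 ± 0.41 and 5.44 ± 0.61 FPKM and the low ALDH1A1 at 0.15 ± 0.11 and 1.7 ± 0.26 FPKM, both higher. ALDH1A1 passed the filter through shGRHL2 alone and so had to differ to be tested. The remaining higher gene was CRABP1, the relative of CRABP2, at 4.06 ± 0.49 and 9.34 ± 1.1 FPKM. Its difference was 1.03, and its runs did not overlap.

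Textbook target genes of the receptors did not follow a single direction. For the glucocorticoid receptor, 6 of 7 target genes were tested and 0 passed the limit (median 0.02): the abundant leucine zipper protein TSC22D3 overlapped at 10.3 ± 1.6 and 8.65 ± 0.55 FPKM, 2 were higher without overlap, the phosphatase DUSP1 at 6.13 ± 0.5 and 10.4 ± 1.1 FPKM and the kinase SGK1 at 2.3 ± 0.49 and 4.77 ± 0.75 FPKM, and 2 were lower without overlap, the chaperone FKBP5 at 3.08 ± 0.17 and 1.78 ± 0.11 FPKM and the transcription factor KLF9 at 1.59 ± 0.16 and 0.688 ± 0.087 FPKM. Over all tested genes, the runs of 18.5% were higher and those of 33.2% lower without overlap. With a pseudocount of 0.1, 1 of these glucocorticoid receptor targets was higher and 1 lower by 2-fold or more. Of 6 tested liver X receptor targets, 2 were higher and 2 lower, with the cholesterol exporter ABCA1 at 2.23 ± 0.19 and 9.82 ± 0.29 FPKM, the lipid carrier APOE at 47.4 ± 1.7 and 120 ± 2.2 FPKM, the lipid regulator SREBF1 at 25.2 ± 1.9 and 11.4 ± 2.8 FPKM and the fatty acid desaturase SCD at 229 ± 1.8 and 20 ± 0.4 FPKM. With equal medians 1 of these 6 was lower. Both liver X receptors themselves overlapped between the libraries. Of 5 tested retinoic acid receptor targets, CYP26B1 was higher and 2 were lower, the transglutaminase TGM2 at 773 ± 3.3 and 366 ± 3.9 FPKM and the phospholipase RARRES3 at 26.7 ± 1.6 and 7.16 ± 1 FPKM, of which 1 stayed past the limit with equal medians.

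Of the vitamin D receptor targets only CYP24A1 was tested, and it was 4.28-fold lower beside a VDR difference of −0.56. Of 3 tested PPAR targets 0 passed the limit (median −0.22), with the most abundant, the fatty acid oxidation enzyme ACADVL, at 109 ± 3.4 and 114 ± 2.6 FPKM. Of 3 tested estrogen receptor targets 1 was higher, the growth factor binding protein IGFBP4 at 16.4 ± 1.2 and 40.5 ± 1.8 FPKM, while the most abundant, the stress response factor XBP1, was at 38.1 ± 1.5 and 23.2 ± 1.3 FPKM and TFF1 was at 0 in all runs. Of 13 tested clock genes around the REV-ERB and ROR receptors, 2 were higher and 1 lower, with a median of 0.34. The runs of 7 were higher and those of 3 lower without overlap, where 18.5% and 33.2% of all tested genes were. The clock repressors BHLHE41, at 0.848 ± 0.2 and 13.6 ± 4.1 FPKM, and BHLHE40, at 30.9 ± 1.4 and 7.67 ± 0.83 FPKM, differed in opposite directions, and the transcription factor TEF was at 2.21 ± 0.3 and 5.97 ± 0.51 FPKM. BHLHE41 passed the filter through shGRHL2 alone and so had to differ to be tested.

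**Figure D4:**
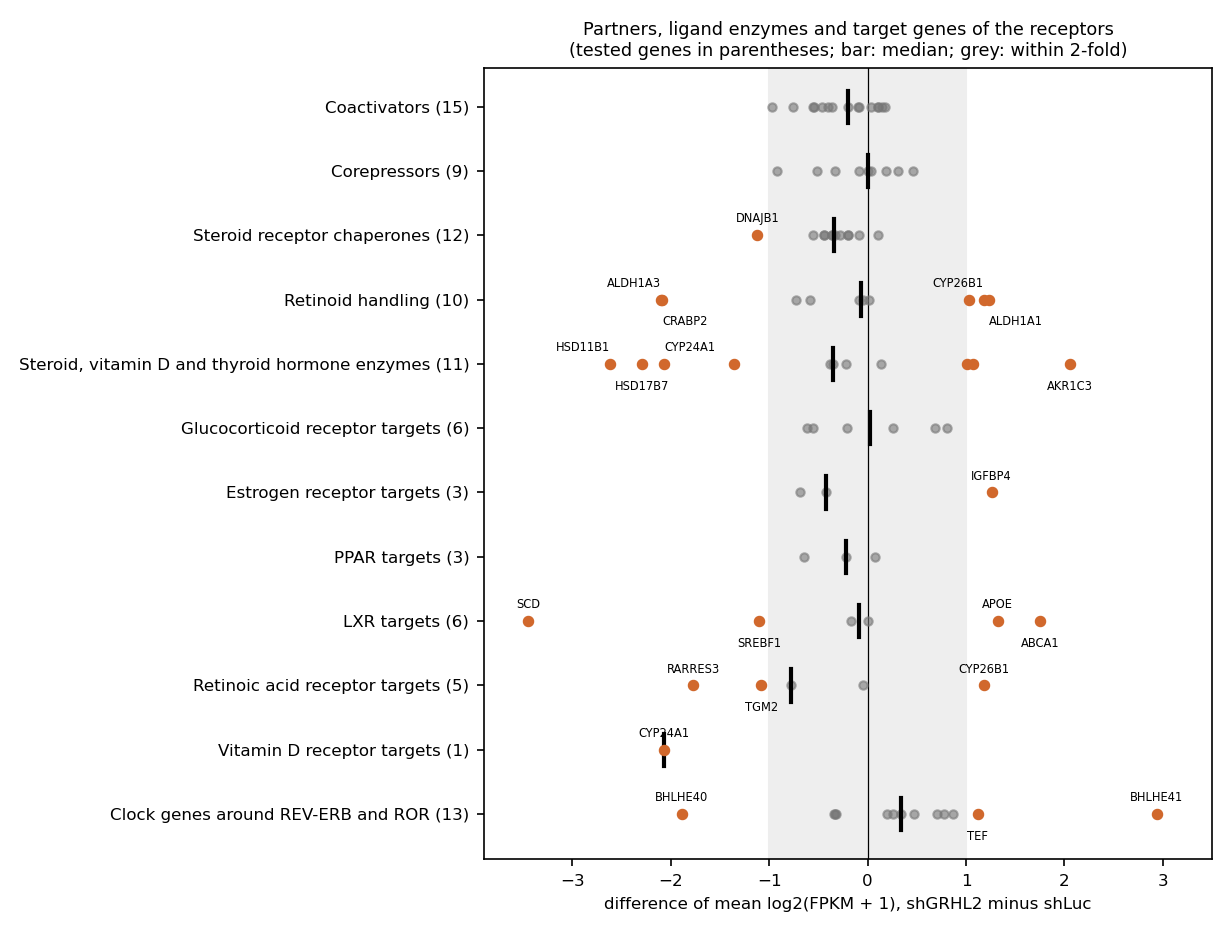
Difference of mean log2(FPKM + 1), shGRHL2 minus shLuc, of every tested gene in 12 lists of receptor partners, ligand enzymes and target genes, with orange dots past the limit of 1 (up to 4 per list named) and black bars for the list medians. Coactivators, corepressors and glucocorticoid receptor targets lie within the grey band of less than 2-fold on this scale, while the retinoid and steroid enzyme lists reach past it on both sides. Ratios of mean FPKM can be larger.

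Over the 12 lists together, 89 of 127 genes were tested, of which 11 (12.4%) were higher and 12 (13.5%) lower by 2-fold or more, beside 4.97% and 7.24% of all tested genes. The median was −0.20. Some of the higher genes, such as AKR1C3, ALDH1A1 and BHLHE41, passed the filter through shGRHL2 alone. The lists were chosen with earlier results of these data known, so these shares describe the listed genes and support no statement on the pathways.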

How the data were processed

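RNA of OVCA429 shLuc and shGRHL2 cells was sequenced in paired-end mode after a stranded total RNA preparation, with 4 samples per group by the labels. The deposited values are FPKM per gene, which the authors made with bcl2fastq 2.17.1.14, STAR 2.4.2a on hg19 and RSEM 1.2.25 with a Gencode annotation. Where a fragment matches more than 1 transcript RSEM splits it, which can affect paralogs and overlapping genes. Besides the overlaps given above, other tested receptors, such as RXRB and NR2C2, also overlap expressed genes on the opposite strand. EBSeq, the study's test, needs counts, which were not used here. The table also held 2 columns of no sample, length and effective length.

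Genes with a mean of 1 FPKM or more in at least 1 group were tested (15019 of 57820). Groups were compared by their mean log2(FPKM + 1), shGRHL2 minus shLuc, with a limit of 1. No p-value was computed, because the runs of a group counted as 1 library: for genes reaching 100 FPKM the CV between runs had a median under 3% in either group. The pseudocount understates changes of low genes. Folds are ratios of mean FPKM. Depth came from the steps of low values, of which 87.9% to 90% per run were whole within 0.1 fragment, and floors and fragment numbers cover counting error only. Gene spans came from a later Gencode annotation lifted to GRCh37, the assembly of hg19, and promoters from RefSeq on GRCh38.p14. NR2F6, VDR, NR4A2, HNF4G and NR0B2 had no promoter entry. A planned comparison of DNA-binding domains was not done here.

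The members and lists were chosen with earlier results of these data known. Members past the limit or at a difference of 0.5 or more in size are given by run and other tested members by group means. Of each list, up to 4 members past the limit and 1 or 2 of the most abundant are named. NCOA3, LCOR, SGK1, FKBP5, KLF9, TFF1 and CRABP1 were added after their values were seen. So were the markers COL1A1, CDH5, VWF, CLDN5, LAPTM5, CD68 and PTPRC. Alternatives were a pseudocount of 0.1, no filter or a filter at 5 FPKM, TPM, equal medians, leaving out the mitochondrial ribosomal RNAs from the total or their fragments from the denominator (the last chosen after seeing the data), and leaving out each run. Python 3.11.15, pandas 2.3.3, numpy 2.4.6 and matplotlib 3.10.9 were used.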

Additional observations from a re-analysis of the deposited data

Results flagged for a closer look

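In 3 of the 50 groups of 4 runs formed by the 25 tested receptors, 1 run stood far from the other 3, where chance flags about 1 in 20 groups, or 2.5 of 50. All 3 were shLuc runs. NR1D2 was at 23.41 FPKM in run 3 and at 18.98, 19.24 and 19.55 FPKM in the others. PPARA was at 6.26 FPKM in run 2 and at 8.24, 8.37 and 8.41 FPKM in the others. RXRB was at 7.16 FPKM in run 2 and at 5.08, 5.17 and 5.36 FPKM in the others, and this run made its libraries overlap.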

How the results depend on the processing

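No paired analysis was possible because the numbers that both groups share follow suffixes of the kind that mark sequencing lanes, not cultures. The sample titles call them replicates, and no label states whether they are lanes or cultures. Pairing by these numbers leaves a difference of group means as it is. Of the receptors past the limit, NR3C2, NR2F1, NR4A1 and THRB stayed past it under the pseudocount of 0.1, TPM, equal medians, both ways of leaving out the mitochondrial ribosomal RNAs and each run left out, while a filter at 5 FPKM removed NR4A1 and left 2 higher and 2 lower of 20. With a pseudocount of 0.1, 5 receptors were lower by 2-fold or more, with NR2F2 and PPARD added to the 3. After rescaling to TPM 1 receptor was higher, since NR3C1 came to 1.00 just under the limit, and the median difference was −0.34. The median was −0.04 over 41 receptors with no filter on low values, −0.12 with equal medians and −0.09 with the mitochondrial ribosomal RNA fragments left out of the denominator, against −0.24 as deposited. Leaving out single runs gave 2 higher, 3 to 4 lower and medians from −0.31 to −0.22. Among 375 values of single receptors under these alternatives 33 moved by more than the spread between runs. No receptor past the limit changed sign. Changing the filter leaves a receptor's own difference as it is, so those values could not move. Among 540 values of the companion lists 51 moved by fixed cutoffs, and reversal was not assessed there. NR3C2 ranged from 2.28 (TPM) to 4.11 (pseudocount 0.1). Depth limits the 16 untested receptors above 0, and 1 library per group limits every comparison.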
